A study of Mus musculus with 7 samples.

Results

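Protein genes of the synaptic vesicle, 10 in all, were examined in RNA-seq of mouse brain samples labelled as prefrontal projection neurons: the synapsins Syn1, Syn2 and Syn3, synaptophysin (Syp), the vesicle glycoproteins Sv2a and Sv2b, the small GTPases Rab3a, Rab3b and Rab3c, and the Rab3 effector rabphilin (Rph3a). They were taken by symbol from the 55367 genes of the deposited count table, and all 10 were found and passed the filter on low counts, which left 17833 genes. The 4 CRS libraries and the 3 noCRS libraries were made from brains of C57BL/6J mice at postnatal day 90, and the labels name the cells as projection neurons running between the medial prefrontal cortex (mPFC) and the lateral habenula (LHB). The labels give no genotype, sex, stress schedule or spelled-out form of CRS, and the title of the series speaks of chronic stress. The sources used here do not say how the neurons were marked and collected, nor whether each library is a separate animal, so the p-values rest on the spread among these 7 libraries, which may be technical.

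Synaptic vesicles store transmitter in the nerve terminal and release it by fusing with the plasma membrane. Synapsins coat the vesicle surface, tie vesicles into a reserve cluster near actin and let go of them when calcium-activated kinases phosphorylate them. Synaptophysin and the SV2 proteins span the vesicle membrane; SV2A is the binding site of the antiepileptic drug levetiracetam, and SV2 proteins are receptors for botulinum toxin A. Rab3 proteins sit on the vesicle while they hold GTP and pass it to the docking site through effectors such as rabphilin and the RIM proteins.

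Most of these genes were higher in the CRS libraries. Sv2b, Rab3b, Syp, Rab3a, Rab3c and Syn2 rose, and the ratios of their group means ran from 43.6-fold for Sv2b down to 2.84-fold for Syn2. Syn1 and Rph3a had group means 2.56 and 1.995 times those of noCRS but did not pass the test, and Syn3 and Sv2a overlapped between the groups, with means 0.894-fold and 1.23-fold those of noCRS. In the quasi-likelihood test of edgeR, with p adjusted over all tested genes (Benjamini-Hochberg) and a threshold of 0.05, 6 of 10 were higher, against 2.07% of the 17833 tested genes. In the same test 0 of 10 were lower, against 0.23%, and the share called in either direction over all genes was 2.3%. At an unadjusted p below 0.05, 7 of 10 passed, against 13.6%. The groups did not overlap, with CRS higher, for 8 of the 10, against 10.1% of tested genes, and for 0 of 10 with CRS lower, against 6.74%. Of the 10, 9 had a log2 fold change above 0, against 49.2%. The median log2 fold change was 1.66 for the 10 and -0.02 for all tested genes. DESeq2 called 7 of 10 higher, against 6.84% of genes, limma-voom 6, against 2.93%, and edgeR with library totals as the scaling 4, against 1.39%. The edgeR count rested on which libraries were used. It was 4 without CRS replicate 1 (against 1.04% of genes), 6 without CRS replicate 2 (1.79%), 3 without CRS replicate 3 (1.02%) and 3 without CRS replicate 4 (0.963%). Without noCRS replicate 1 it was 4 (against 1.09%), without noCRS replicate 2 it was 2 (0.725%) and without noCRS replicate 3 it was 4 (0.899%).

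**Figure D1:**
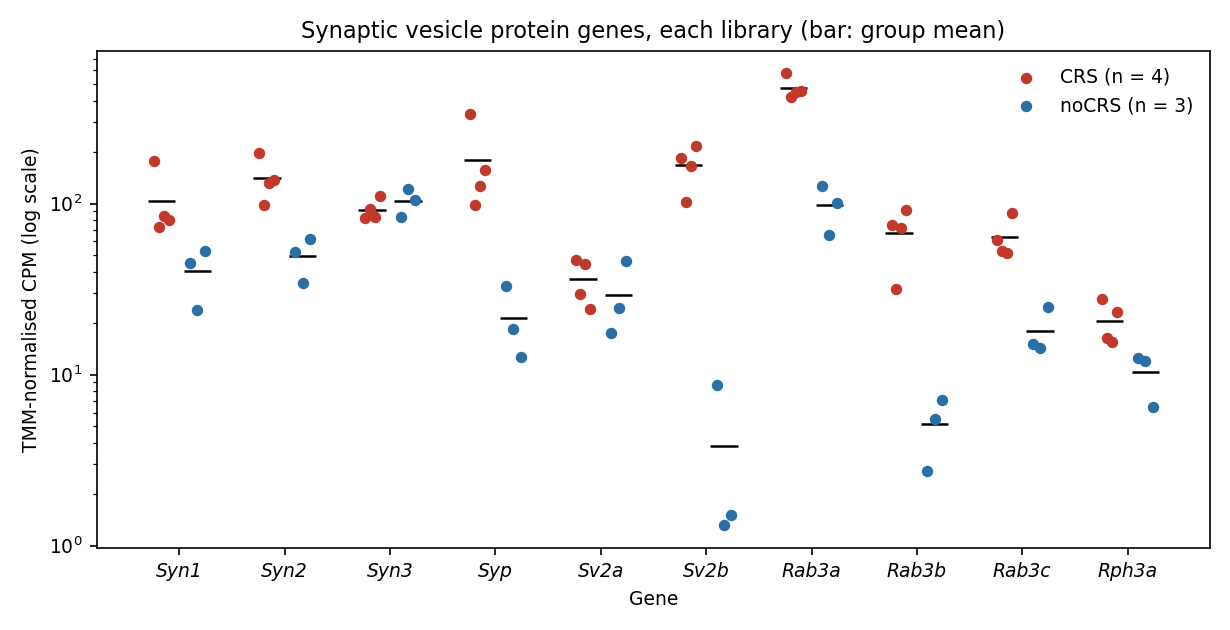
TMM-normalised CPM (log axis) of the 10 genes in each CRS library (n = 4, red) and noCRS library (n = 3, blue), with a bar at each group mean. Sv2b and Rab3b show the widest gaps, 102 to 218 CPM in CRS against 1.32 to 8.71 CPM in noCRS for Sv2b and 31.9 to 91.7 CPM in CRS against 2.75 to 7.09 CPM in noCRS for Rab3b, while the points of Syn3 and Sv2a overlap.

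Levels are given as CPM, the counts of a gene scaled to the effective library size by the TMM method. The libraries held 32346275 to 39740623 counts in CRS and 28677703 to 39965667 in noCRS. Over all genes 369 (2.07%) were called higher and 41 (0.23%) lower in CRS. When libraries were scaled by their totals alone, 248 were called higher and 64 lower. That scaling put the median of all genes' log2 fold changes at -0.17, against -0.02 with TMM factors. Summed neuronal markers were higher in CRS as well. The summed level of 8 pan-neuronal markers (Snap25 and Map2 the most abundant) was 2751 to 4049.6 CPM in CRS and 362 to 453 CPM in noCRS. Of the 8, 4 rose and 7 had log2 fold changes above 0. Most of the CRS sum was Snap25, at 2747 ± 611 CPM (SD) in CRS and 158 ± 57.7 CPM in noCRS. Map2 did not rise, at 175 ± 53.7 CPM in CRS and 186 ± 19.0 CPM in noCRS (log2 fold change -0.08). For 8 excitatory markers, led by Nrgn and Neurod6, the sums were 333 to 531 CPM in CRS and 18.6 to 31.2 CPM in noCRS, with 2 of 8 risen and Emx1 at 0 in noCRS. For 8 inhibitory markers, led by Sst and Gad1, they were 161 to 664 CPM in CRS and 36.2 to 44.5 CPM in noCRS, with Sst and Gad1 risen of 6 tested and Slc32a1 at 0 in noCRS. These 2 calls were not stable: Gad1 kept its call when CRS replicate 2 was left out and lost it when each of the other 6 was (largest edgeR adjusted p 0.136), and Sst lost its call without noCRS replicate 1 or 2 (adjusted p up to 0.0552) and by limma-voom (adjusted p = 0.106). Among the excitatory calls, that of Neurod6 was lost without noCRS replicate 1 (edgeR adjusted p = 0.0626). Nrgn was called in each test that left a library out. Neurod6, at 0.0308 to 2.79 CPM in noCRS, could pass the filter on low counts only with the CRS libraries, where it was high. The call of Neurod6 therefore adds no separate support. Oligodendrocyte markers were the most abundant in both groups (Cnp among them; 26561 to 52279 CPM in CRS, 32132 to 37181 CPM in noCRS), followed by astrocyte markers (Apoe and Slc1a3; 4670.2 to 9808 CPM in CRS, 8419 to 9596 CPM in noCRS), and 0 of 8 in each list passed. In every library both glial sums were above the pan-neuronal sum, although the cells are labelled as neurons. Oligodendrocyte precursor markers summed to 1257 to 1711 CPM in CRS and 2194 to 2612 CPM in noCRS. Of the 8, 4 fell, namely Cspg4, C1ql1, Sox10 and Gpr17. The most abundant, Pdgfra and Olig1, did not pass (edgeR adjusted p = 0.823 and 0.0703). Microglial markers (P2ry12 among them) summed to 91.9 to 129 CPM in CRS and 92.4 to 133 CPM in noCRS, endothelial and mural markers (Rgs5 and Cldn5) to 155 to 546 CPM in CRS and 69.1 to 202 CPM in noCRS, with 0 called in either list, and the blood markers Hba-a1, Hbb-bs and Alas2 were at 0 in noCRS and at most 11.5 CPM in CRS. In such bulk samples a larger share of neurons and more RNA per neuron cannot be told apart, and the part of the marker differences in the results on the vesicle genes was not tested.

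**Figure D2:**
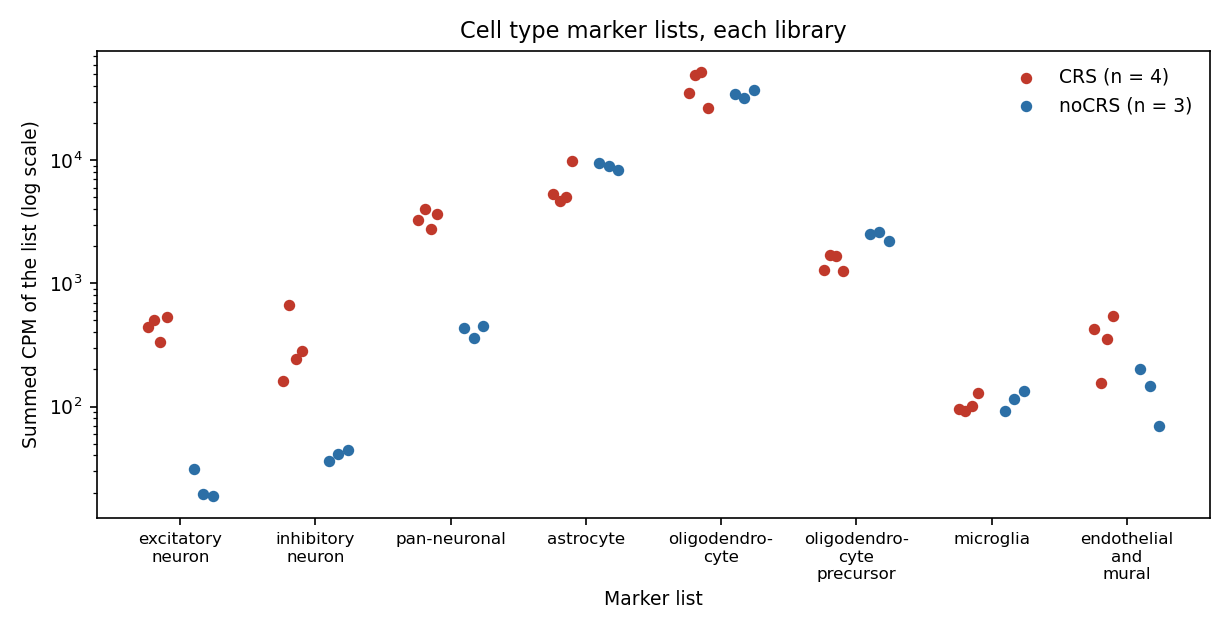
Summed CPM (log axis) of 8 cell type marker lists (blood is not drawn) in every CRS library (n = 4, red) and noCRS library (n = 3, blue). The 3 neuronal lists are higher in all CRS libraries, pan-neuronal markers at 2751 to 4049.6 CPM in CRS against 362 to 453 CPM in noCRS, the precursor list is lower in all of them, and the oligodendrocyte and microglia points overlap.

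Promoter windows, from 250 bases before to 50 bases after the transcription start, were taken from RefSeq (GRCm38.p6) for 9 of the 10 genes, those other than Syn3. Where RefSeq has several starts for a gene, the window nearest to the start in the count table's annotation was used. They are shown for 4 genes: Syn1, whose window holds a repressor element pattern, Rab3a, the most abundant of the 10, and the pair Sv2b and Sv2a, paralogues whose levels parted in the comparison. The Syn1 window lies at chrX:20920869-20921168 (minus strand), that of Rab3a at chr8:70754453-70754752 (plus strand), that of Sv2b at chr7:75309213-75309512 (minus strand) and that of Sv2a at chr3:96180977-96181276 (plus strand). Each is written 5′ to 3′ on the gene's strand, and capitals mark GC boxes (GGGCGG), cores of the cAMP response element (TGACGT) and the pattern CAGCACCNNGGNCAG of the RE1 element, all searched on both strands.
Syn1: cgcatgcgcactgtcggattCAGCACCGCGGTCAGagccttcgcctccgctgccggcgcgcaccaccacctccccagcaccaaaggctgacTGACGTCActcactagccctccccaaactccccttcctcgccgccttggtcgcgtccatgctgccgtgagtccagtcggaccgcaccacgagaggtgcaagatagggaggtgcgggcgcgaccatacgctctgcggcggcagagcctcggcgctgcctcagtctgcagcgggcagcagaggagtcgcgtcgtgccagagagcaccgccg
Rab3a: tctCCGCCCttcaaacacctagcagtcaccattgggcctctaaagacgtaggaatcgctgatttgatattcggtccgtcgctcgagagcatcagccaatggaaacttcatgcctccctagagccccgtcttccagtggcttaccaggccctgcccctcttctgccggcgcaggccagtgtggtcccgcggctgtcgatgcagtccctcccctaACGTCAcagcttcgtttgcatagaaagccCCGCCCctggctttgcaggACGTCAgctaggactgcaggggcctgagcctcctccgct
Sv2b: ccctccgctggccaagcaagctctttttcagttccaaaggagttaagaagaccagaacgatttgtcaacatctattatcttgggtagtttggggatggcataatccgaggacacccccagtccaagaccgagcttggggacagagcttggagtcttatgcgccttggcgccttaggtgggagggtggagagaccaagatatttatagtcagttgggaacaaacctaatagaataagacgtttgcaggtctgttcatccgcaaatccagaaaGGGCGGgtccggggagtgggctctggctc
Sv2a: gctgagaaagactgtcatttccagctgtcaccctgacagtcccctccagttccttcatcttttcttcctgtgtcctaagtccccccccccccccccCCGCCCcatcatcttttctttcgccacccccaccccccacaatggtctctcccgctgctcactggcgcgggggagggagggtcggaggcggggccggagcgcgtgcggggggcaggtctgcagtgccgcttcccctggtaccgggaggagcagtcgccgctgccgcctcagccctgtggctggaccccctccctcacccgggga
RE1 is the site of the repressor REST, which keeps neuronal genes off in other cells, and its pattern, whose last free base was set after the Syn1 window was seen, stood 230 bases before the start of Syn1 and in 0.058% of 32851 windows. The full cAMP response element TGACGTCA, a site for activity-driven CREB factors, followed in Syn1, where the overlapping cores of its 2 strands begin 159 and 157 bases before the start, and was in 1.79% of all windows. Rab3a held 2 single cores, 37 bases before and 11 bases after the start, and the core was in 7.51% of windows. A GC box was present in 7 of the 9 windows, with 4 in that of Rab3b (the first and second overlap), 3 in that of Syn2 and 1 each in those of Sv2b and Sv2a, and in 35.7% of all windows. The G+C content was 51.3% for Sv2b and 68.0% for Sv2a, and the median over all windows was 52.7%.

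The synapsins parted in the comparison. Syn1 (chromosome X, 20860511 to 20921004), the synapsin most used as a presynaptic marker, measured 178, 72.5, 84.7 and 80.0 CPM in CRS replicates 1 to 4 and 44.8, 24.0 and 52.7 CPM in noCRS replicates 1 to 3. All CRS libraries lay above all noCRS libraries, with CRS replicate 1 far above the other CRS libraries. The log2 fold change was 1.36 ± 0.40 (SE), with a 95% interval of 0.43 to 2.28, and the edgeR adjusted p was 0.161, short of the threshold; DESeq2 gave an adjusted p of 0.0285.

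Syn2 (chromosome 6, 115134902 to 115282006), which keeps a reserve of vesicles at glutamatergic terminals, measured 196, 97.8, 132 and 138 CPM in CRS and 52.2, 34.5 and 62.3 CPM in noCRS. The groups did not overlap, and Syn2 rose by 1.51 ± 0.30 on the log2 scale (edgeR adjusted p = 0.0434). The call held without CRS replicate 2 and was lost when any 1 of the other 6 libraries was left out (adjusted p up to 0.152), and with the library totals or RLE factors as the scaling (adjusted p up to 0.0745).

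Syn3 (chromosome 10, 86055125 to 86498896), a synapsin best known from developing neurons and early neurite growth, measured 81.9, 92.6, 83.4 and 110.1 CPM in CRS and 83.3, 121 and 104 CPM in noCRS. The libraries of the groups overlapped, and the log2 fold change was -0.16 ± 0.20 (edgeR adjusted p = 0.859), with a 95% interval of -0.62 to 0.29. Of the exon bases of Syn3, 14.1% also belong to Timp3, a metalloproteinase inhibitor gene on the other strand, and the labels name no strand-specific step. Timp3 itself measured 254, 158, 236 and 315 CPM in CRS and 228, 330 and 244 CPM in noCRS, so that Syn3 values are uncertain, and how far Timp3 reads entered them was not tested. Syn1 and Syn2 share 0.273% and 1.28% of their exon bases with another gene.

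Per kilobase of annotated exon, the scale used here to compare levels between genes, the shares of the synapsins were compared. Syn3 was 7.55% to 17.4% of the synapsin total in CRS and 24.4% to 44.7% in noCRS, and Syn2 was 31.6% to 37.1% in CRS and 22.3% to 26.7% in noCRS, with no overlap for either. The log2 ratio of Syn2 to Syn3 (CPM + 0.5) was 1.65 higher in CRS, a 3.13-fold shift, and that of Syn1 to Syn3 1.47 higher, a 2.78-fold shift. Both had an exact two-sided permutation p of 0.0571 (adjusted p = 0.1 over the 7 pairs compared), the smallest that 4 libraries against 3 can give, so that no pair could pass 0.05. The ratio of Syn1 to Syn2 differed by -0.17 (exact permutation p = 0.4), and single library differences ran from -0.56 to 0.37.

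Synaptophysin also rose in CRS. Syp (chromosome X, 7638471 to 7653256), the abundant vesicle membrane protein that binds synaptobrevin, measured 334, 98.2, 127 and 156 CPM in CRS and 33.1, 18.6 and 12.7 CPM in noCRS. The lowest CRS library was above the highest noCRS library, and the CRS mean was 179 ± 106 CPM (SD, n = 4) against 21.4 ± 10.5 CPM in noCRS (SD, n = 3). The log2 fold change was 3.06 ± 0.53 (edgeR adjusted p = 0.0260). The call was lost without CRS replicate 3 or 4 or noCRS replicate 2 or 3 (adjusted p up to 0.128). Syp shares 16.8% of its exon bases with Gm14703, a predicted gene on the other strand, which measured 179, 48.8, 56.5 and 75.1 CPM in CRS and 19.0, 6.07 and 4.99 CPM in noCRS (log2 fold change 3.16, edgeR adjusted p = 0.0541). The 2 genes had the same highest library in each group, and their reads cannot be told apart where they overlap.

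Of the 7 ratios between paralogues, that of the SV2 pair differed most. Sv2b (chromosome 7, 75114894 to 75309262), the SV2 form of many forebrain glutamatergic neurons, had 6096, 3267, 5035 and 8366 counts in CRS and 361, 41 and 49 counts in noCRS. In CPM this was 184, 102, 166 and 218 in CRS and 8.71, 1.32 and 1.51 in noCRS, so that the lowest CRS library stood well above the highest noCRS library, noCRS replicate 1. Sv2b rose by 5.43 ± 0.78 on the log2 scale (95% interval 3.64 to 7.22, edgeR adjusted p = 0.0127), and the call held in each of the 7 tests that left a library out (adjusted p up to 0.0456). The noCRS mean rested on replicate 1: it was 3.84 CPM with it and 1.41 CPM without it, where the log2 fold change was 6.90.

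Sv2a (chromosome 3, 96181151 to 96195521), the SV2 form found in nearly all neurons, measured 46.6, 29.4, 44.4 and 24.2 CPM in CRS and 17.5, 24.5 and 45.8 CPM in noCRS. The groups overlapped over most of their range, and the log2 fold change was 0.30 ± 0.41, with a 95% interval of -0.64 to 1.24 (edgeR adjusted p = 0.873). Per kilobase, Sv2b was 68.6%, 65.7%, 67.5% and 83.3% of the SV2 total in CRS replicates 1 to 4 and 21.5%, 2.89% and 1.79% in noCRS replicates 1 to 3. Sv2b was thus the larger part of the pair in each CRS library and the smaller part in each noCRS library. The log2 ratio of Sv2b to Sv2a was 5.29 higher in CRS, a 39.1-fold shift (exact two-sided permutation p = 0.0571, adjusted p = 0.1), with single library differences of 2.75 to 7.67. Without noCRS replicate 1 the shift was 6.35 and without noCRS replicate 3 it was 4.57. The promoter windows of the pair, printed above, differed in G+C content and held 1 GC box each.

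**Figure D3:**
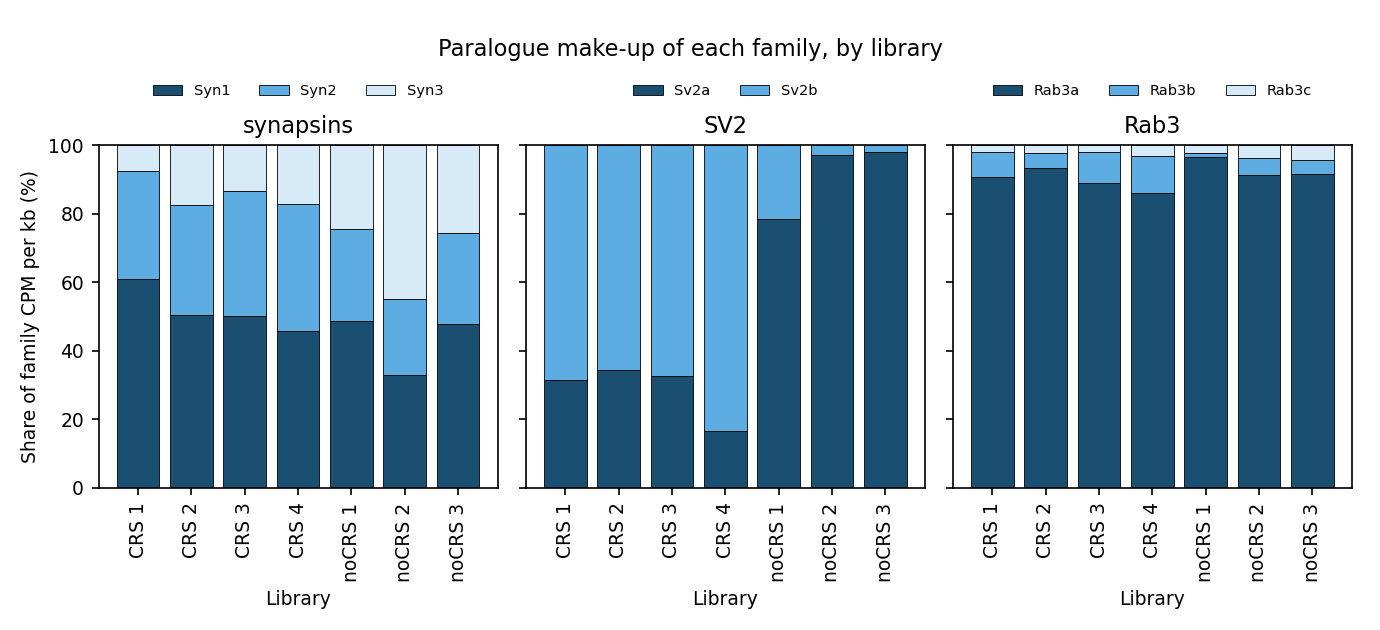
Share of each paralogue in its family's summed CPM per kilobase of exon (%, stacked bars), for each CRS library (left 4 bars) and noCRS library (right 3 bars). Sv2b makes up 65.7% to 83.3% of the SV2 bars in CRS and 1.79% to 21.5% in noCRS, Syn3 makes up 7.55% to 17.4% in CRS against 24.4% to 44.7% in noCRS, and Rab3a holds at least 86.0% of Rab3 in every library.

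All 3 Rab3 genes rose. Rab3a (chromosome 8, 70754679 to 70758677), the main Rab3 form of brain and the vesicle GTPase that limits release, measured 577, 418, 446 and 457 CPM in CRS and 127, 65.8 and 100.4 CPM in noCRS. The CRS libraries were close to each other and all over 3 times the highest noCRS library. The log2 fold change was 2.28 ± 0.25, the most precise of the 6 that rose (95% interval 1.71 to 2.86, edgeR adjusted p = 0.00492), and the call held in each of the 7 tests that left a library out (adjusted p up to 0.0314). Rab3a shares 1.303% of its exon bases with Mpv17l2.

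Rab3b (chromosome 4, 108879063 to 108943324), a form found in a subset of neurons and in endocrine cells, measured 74.8, 31.9, 71.9 and 91.7 CPM in CRS and 2.75, 5.49 and 7.09 CPM in noCRS. CRS replicate 2 was the lowest of its group and still above all noCRS libraries. Rab3b rose by 3.73 ± 0.50 on the log2 scale (edgeR adjusted p = 0.0103), a call lost without noCRS replicate 2 (adjusted p = 0.0541). It shares 8.995% of its exon bases with a gene on the other strand, 8030443G20Rik, which had 4.65, 7.30, 4.32 and 15.6 CPM in CRS and 0, 2.28 and 0 CPM in noCRS.

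Rab3c (chromosome 13, 110054187 to 110280996), a vesicle Rab3 that overlaps in use with Rab3a, measured 61.3, 52.5, 51.1 and 88.3 CPM in CRS and 15.2, 14.3 and 24.8 CPM in noCRS, again with no overlap. It rose by 1.81 ± 0.33 on the log2 scale (edgeR adjusted p = 0.0312). The call held without CRS replicate 2 or noCRS replicate 3 and was lost without each of the other 5 libraries (adjusted p up to 0.138), and with library totals as the scaling (adjusted p = 0.0545).

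The make-up of the Rab3 family was also compared. The log2 ratio of Rab3b to Rab3c was 1.80 higher in CRS, a 3.48-fold shift with no overlap of the groups (exact two-sided permutation p = 0.0571, adjusted p = 0.1). The ratio of Rab3a to Rab3b was -1.27 different in CRS (exact permutation p = 0.114, adjusted p = 0.16) and that of Rab3a to Rab3c 0.53 (exact permutation p = 0.171, adjusted p = 0.2), and in both the groups overlapped. Rab3a was the main form in every library, at 86.0% to 93.3% of the family per kilobase in CRS and 91.5% to 96.5% in noCRS.

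Rph3a (chromosome 5, 120940499 to 121010092), whose protein binds GTP-loaded Rab3 and calcium, measured 27.5, 16.3, 15.5 and 23.1 CPM in CRS and 12.5, 12.04 and 6.47 CPM in noCRS. The groups did not overlap but came close, with 15.5 CPM in CRS replicate 3 and 12.5 CPM in noCRS replicate 1. The log2 fold change was 0.996 ± 0.46 (95% interval -0.05 to 2.04, edgeR adjusted p = 0.396).

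**Figure D4:**
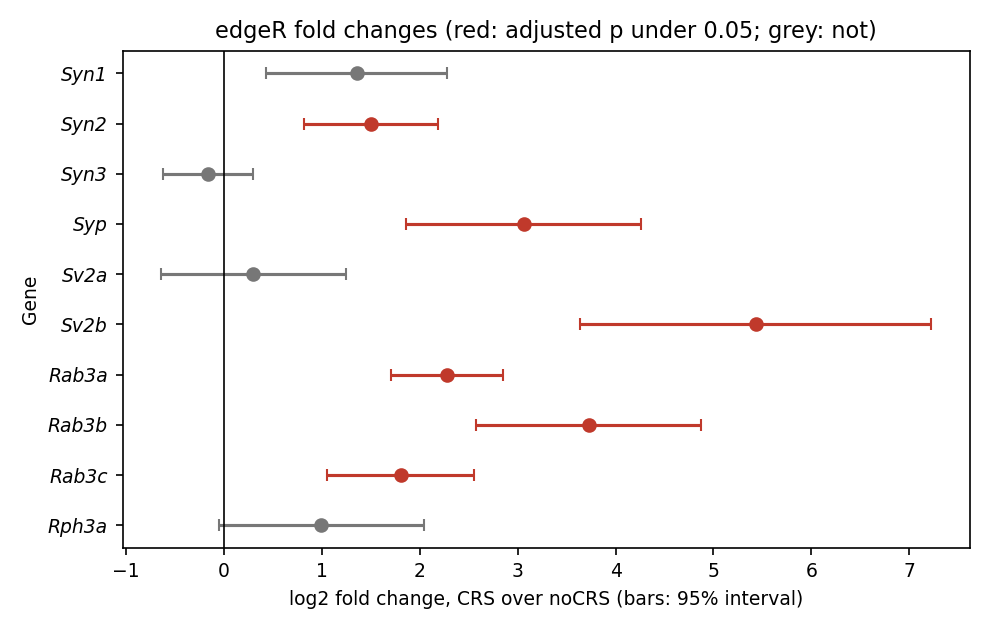
Log2 fold change of CRS over noCRS from edgeR for each gene, with its 95% interval. Sv2b (5.43), Rab3b (3.73), Syp (3.06), Rab3a (2.28), Rab3c (1.81) and Syn2 (1.51) passed the adjusted threshold (red), and the intervals of Syn3, Sv2a and Rph3a cross 0.

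The order of the 10 genes by level per kilobase differed between the groups. Rab3a was first in both, at 213 ± 31.4 CPM per kilobase in CRS (SD, n = 4) and 43.9 ± 13.7 in noCRS (SD, n = 3), with no overlap with the next gene in either. In CRS it was followed by Syp (34.3 ± 20.3), Syn1 (31.4 ± 15.0), Syn2 (20.05 ± 5.81), Sv2b (19.99 ± 5.81), Rab3b (19.2 ± 7.19), Sv2a (7.79 ± 2.38), Syn3 (7.49 ± 1.06), Rab3c (5.25 ± 1.43) and Rph3a (4.44 ± 1.24), where each neighbour overlapped the next. In noCRS the order after Rab3a was Syn1 (12.3 ± 4.50), Syn3 (8.38 ± 1.54), Syn2 (7.06 ± 2.002), Sv2a (6.32 ± 3.18), Syp (4.11 ± 2.02), Rph3a (2.23 ± 0.722), Rab3c (1.502 ± 0.485), Rab3b (1.45 ± 0.622) and Sv2b (0.459 ± 0.503), again with each neighbour overlapping the next. Sv2b was thus last of the 10 in noCRS and level with Syn2 in CRS.

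The libraries of 1 group did not rank alike for every gene. In CRS, replicate 1 was the highest library for 6 genes (Syn1, Syn2, Syp, Sv2a, Rab3a and Rph3a) and replicate 4 for the other 4 (Syn3, Sv2b, Rab3b and Rab3c), while replicate 2 was the lowest for 6. In noCRS, replicate 3 was the highest for 5 and replicate 1 for 4, among them Syp and Sv2b. The summed level of the 10 genes was 1011 to 1760.4 CPM in CRS and 321 to 418 CPM in noCRS.

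Related vesicle genes were counted from lists chosen by role. These lists, like the 10 genes, were chosen with earlier results of these data known, so their counts are not an independent test. Among other members of these families, 0 of 12 tested passed in either direction by edgeR, against 2.3% of all tested genes. Unadjusted, 3 had p below 0.05, against 13.6%. DESeq2 called 3 higher, against 6.84%, and limma-voom 2 higher, against 2.93%, and neither called any lower. The nearest were Rab27b, a GTPase of secretory vesicles (54.5 ± 12.2 CPM in CRS, n = 4, and 24.0 ± 5.24 CPM in noCRS, n = 3; edgeR adjusted p = 0.0845), and the synaptophysin relative Synpr (122 ± 27.7 CPM in CRS and 46.3 ± 20.4 CPM in noCRS; edgeR adjusted p = 0.0866), each with no overlap of the groups. Syngr3, a synaptogyrin, had an adjusted p of 0.116 and Svop, an SV2-related transporter-like protein, 0.529. Of the other 8 tested, 5 had log2 fold changes above 0 and 3 below 0, among them Syngr2 (20.4 ± 7.27 CPM in CRS and 29.0 ± 4.77 CPM in noCRS, log2 fold change -0.51) and Sypl (132 ± 40.4 CPM in CRS and 145 ± 24.9 CPM in noCRS, -0.14), and the groups overlapped for all 8. The closest paralogues of the 10 genes, Sv2c and Rab3d, were low, with Sv2c at 0.983 ± 1.73 CPM in CRS and 0.792 ± 1.37 CPM in noCRS and Rab3d at 1.02 ± 0.753 CPM in CRS and 0.524 ± 0.907 CPM in noCRS. These paralogues had a median of 0.31 on the log2 scale. For 3 of the 12 the groups did not overlap, with CRS higher, against 10.1% of tested genes.

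Partners of Rab3 and the synapsins (effectors, exchange factors, GTPase-activating proteins and kinases) likewise gave 0 of 18 past the edgeR threshold, against 2.3% of all tested genes. The median of their log2 fold changes was 0.52. Unadjusted, 5 had p below 0.05, against 13.6%. DESeq2 called 3, all higher, against 6.84%, and limma-voom 0, against 2.93% called higher. edgeR called 1 without noCRS replicate 2 and 1 without noCRS replicate 3, where 0.725% and 0.899% of all genes were called higher. Cdk5, a kinase that phosphorylates synapsin I, measured 125 ± 12.2 CPM in CRS and 80.5 ± 6.55 CPM in noCRS (adjusted p = 0.113). Rab3ip, an exchange factor named for its binding of Rab3, measured 58.1 ± 11.8 CPM in CRS and 33.9 ± 1.32 CPM in noCRS (adjusted p = 0.182), and Camk2b, a calcium-activated kinase of synapsin, 36.1 ± 21.4 CPM in CRS and 2.94 ± 4.09 CPM in noCRS (adjusted p = 0.186). Rabac1, a Rab acceptor of the Golgi, had an adjusted p of 0.358.

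Other proteins of the vesicle membrane gave 9 of 18 higher, against 2.07% of all tested genes, and 0 lower, against 0.23%. The median of their log2 fold changes was 1.45. Among those of smallest p were the proton pump subunits Atp6v1g2 (663 ± 144 CPM in CRS and 64.8 ± 5.95 CPM in noCRS), Atp6v1b2 (1493 ± 142 CPM in CRS and 408 ± 21.6 CPM in noCRS) and Atp6v1a (492 ± 25.2 CPM in CRS and 173 ± 24.3 CPM in noCRS), and these 3 calls held in each test that left a library out (edgeR adjusted p up to 0.0245). The pump acidifies the vesicle so that transmitter can be loaded. Others that rose were the calcium sensor Syt1 (364 ± 111 CPM in CRS and 9.002 ± 5.14 CPM in noCRS), the glutamate transporter Slc17a6 (12.5 ± 6.15 CPM in CRS and 0 counts in noCRS), Scamp1, Atp6v1e1 and Atp6v0c. Of these the calls of Scamp1, Atp6v1e1 and Atp6v0c were lost without 4, 5 and 7 of the single libraries, noCRS replicates 1, 2 and 3 and CRS replicate 4 among them in each case (adjusted p up to 0.134). With library totals as the scaling, Atp6v1e1 (adjusted p = 0.0547) and Atp6v0c (adjusted p = 0.0797) did not pass either. Slc17a6, 1 of the 9, could pass the filter on low counts only through the CRS libraries, where it was high. Its call therefore adds no separate support.

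Genes of vesicle recycling by clathrin and dynamin gave 3 of 24 higher, against 2.07% of all tested genes, and 0 lower, against 0.23%. The median of their log2 fold changes was 0.56. The 3 were the lipid phosphatase Synj1, which strips the coat (52.9 ± 5.09 CPM in CRS and 15.1 ± 3.75 CPM in noCRS), the endophilin Sh3gl2 (231 ± 87.8 CPM in CRS and 49.8 ± 14.5 CPM in noCRS) and the adaptor subunit Ap2m1 (723 ± 88.2 CPM in CRS and 388 ± 44.3 CPM in noCRS). All 3 calls were lost without CRS replicate 1, 3 or 4 or noCRS replicate 2 or 3 (largest edgeR adjusted p 0.145), without noCRS replicate 1 also those of Sh3gl2 and Ap2m1, and without CRS replicate 2 also that of Ap2m1. With library totals as the scaling the call of Ap2m1 was lost as well (adjusted p = 0.0628). Pacsin1, a membrane-bending partner of dynamin, was next (88.5 ± 29.0 CPM in CRS and 29.5 ± 8.86 CPM in noCRS, adjusted p = 0.0522).

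**Figure D5:**
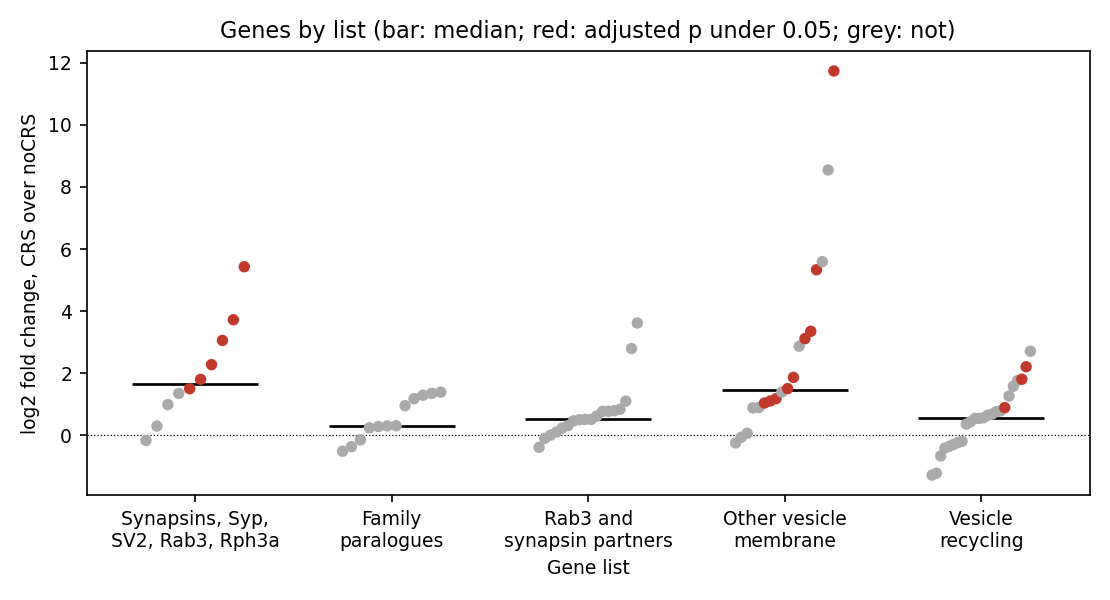
Log2 fold change of CRS over noCRS for the tested genes of each list, with the list's median as a bar and genes past the adjusted threshold in red. The 10 vesicle protein genes (median 1.66) and the other vesicle membrane genes (1.45) lie higher than the family paralogues (0.31), the partners (0.52) and the recycling genes (0.56); the topmost point, Slc17a6, had 0 counts in noCRS, and its height depends on the prior count of the fit.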

How the data were processed

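RNA-seq was made from 4 CRS and 3 noCRS libraries. The authors deposited 1 table of raw counts per gene (whole numbers) with exon positions on GRCm38 and exon lengths in bases. Per the labels' protocols, RNA was taken with a micro-scale kit and libraries were made with a transposase kit, with no strand-specific step named. Per the submitters' processing notes, FastQC, HISAT, HISAT2, featureCounts and DESeq2 were used; the column names, per the file headers, end as output of the aligner STAR does, so the aligner is not settled. The handling of reads that match several genes was not stated in those notes, and paralogues such as the Rab3 genes may share reads.

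The test of CRS over noCRS on the deposited counts used edgeR 4.0.16 (R 4.3.3) with TMM factors, its default expression filter and the quasi-likelihood fit without covariates (Benjamini-Hochberg adjustment over 17833 genes, threshold 0.05). The SE is the log2 fold change divided by the square root of its F statistic. Ratios of paralogues were compared by exact permutation (scipy 1.17.1). The fit was run on simulated data with 200 changed genes. Only genes that had already passed the filter were simulated, so the filter itself was hardly tested. The alternatives tried were 3 scalings, 2 filters, 2 thresholds, 2 pseudocounts, each library left out, the replicate number as a block, and as other tools DESeq2 1.42.0 and voom with sample quality weights from limma 3.58.1. The members and lists were chosen with earlier results of these data known. Named were all members, in each list the 4 of smallest p and those called, and the 2 most abundant genes of each marker list, except some that are not reported here; Sv2c, Rab3d, Emx1, Slc32a1, the blood markers, Syngr2, Sypl, the related recycling forms and the overlapping genes were named after their values were seen. No libraries were duplicates (chi-square per gene at least 93.6 between any 2).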

Additional observations from a re-analysis of the deposited data

Results flagged for a closer look

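In 4 of 27 sets of 4 CRS values, 1 library lay far from the other 3, measured as its gap to the nearest library over the range of the group and set against Dixon's 95% critical value for 4 values. Chance gives about 1 such flag in 20 groups. For Syn1 the value was 0.8845: CRS replicate 1 had 178 CPM and the other CRS libraries 72.5 to 84.7 CPM. For the log2 ratio of Sv2b to Sv2a it was 0.857, with CRS replicate 4 at 3.15 and the lowest CRS library at 1.78. For the astrocyte marker sum it was 0.8684, with CRS replicate 4 at 9808 CPM and the other CRS libraries at 4670.2 to 5346 CPM. For the blood marker sum it was 0.9971, with CRS replicate 4 at 11.5 CPM and the others at most at 0.0330 CPM.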

How the results depend on the processing

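All 7 ratio comparisons and the 10 vesicle protein genes kept their direction in every alternative. Over all genes, 410 were called in the main setting, 96 at a threshold of 0.01, 714 at 0.1, 1631 by DESeq2, 639 by limma-voom and 142 to 352 with 1 library left out. Of the 10 vesicle protein genes, 6 were called in the main setting, 1 at 0.01, and 2 to 6 with 1 library left out. Family paralogues, with 0 called in the main setting, had 2 at 0.1, 3 by DESeq2 and 2 by limma-voom, and 0 with any library left out. Rab3 and synapsin partners had 3 by DESeq2 and 0 to 1 with 1 library left out. Other vesicle membrane genes had 5 at 0.01 and 6 to 9 with 1 library left out. Recycling genes, with 3 in the main setting, had 0 at 0.01, 6 at 0.1 and 0 to 3 with 1 library left out. DESeq2 called 10 of them (9 higher and 1 lower) and limma-voom 7 (6 higher and 1 lower). Same-numbered libraries deviated from their group means with correlations of -0.00319 to 0.0228. CRS replicates 1 and 3 correlated best with the noCRS library of their own number, and CRS replicate 2 with noCRS replicate 3. With so few libraries, these values cannot settle whether the numbers pair the libraries. With the number as a block (replicate block), 12 genes were called over all. Among them were 0 of the vesicle protein genes, 2 of the other vesicle membrane genes and 0 of the recycling genes. The Sv2b to Sv2a difference was then 4.97. Among single marker genes, the log2 fold change of Map2 was -0.26 to 0.08 (0.0841 without CRS replicate 1) and that of P2ry12 -4.87 to 0.25 (without noCRS replicate 3) with 1 library left out, against -0.08 and -0.89 in the main setting, none of them called; the cause was not tested. Sv2b rested on the fewest counts in noCRS, 41 in replicate 2, which limits the precision of its fold change.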

Other observations

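Related forms of 4 recycling protein families were set side by side after their values were seen. Of the dynamins, Dnm1 measured 19.5 ± 5.87 CPM in CRS (SD, n = 4) and 5.72 ± 0.856 CPM in noCRS (SD, n = 3), Dnm2 43.3 ± 15.0 CPM in CRS and 101 ± 14.0 CPM in noCRS, and Dnm3 91.3 ± 11.7 CPM in CRS and 104 ± 24.8 CPM in noCRS. The groups did not overlap for Dnm1 (CRS higher, as in 10.1% of tested genes) and Dnm2 (CRS lower, as in 6.74%). They overlapped for Dnm3, and none of the 3 passed edgeR's quasi-likelihood test (adjusted p = 0.129, 0.104 and 0.844). Of the endophilins, Sh3gl2 rose, as given above, and Sh3gl1 measured 45.2 ± 18.2 CPM in CRS and 59.7 ± 10.7 CPM in noCRS. Of the amphiphysins, Amph measured 53.1 ± 18.0 CPM in CRS and 41.2 ± 16.1 CPM in noCRS and Bin1 204 ± 83.0 CPM in CRS and 249.7 ± 36.7 CPM in noCRS. Of the intersectins, Itsn1 measured 19.7 ± 8.02 CPM in CRS and 31.1 ± 6.94 CPM in noCRS and Itsn2 59.8 ± 12.3 CPM in CRS and 70.2 ± 23.2 CPM in noCRS. Sh3gl1, Amph, Bin1, Itsn1 and Itsn2 overlapped between the groups and did not pass.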
